A study of Mus musculus with 8 samples.

Results

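Citric acid cycle enzymes were followed in the ventricles of newborn and week-old mice with and without a deletion of lysine 210 in cardiac troponin T. The 9 genes were Cs, Idh3a, Idh3b, Idh3g, Ogdh, Suclg1, Sucla2, Fh1 and Mdh2. Their probes were taken by the RefSeq accession that the array gave to each probe, which found 12 probes among the 32988 probes that could be given a gene name, and 9 genes of 22909. All 9 genes were well above background on all 8 arrays, with processed signals between 2539 and 238586, and all 9 were tested.

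The cycle oxidises acetyl groups in the mitochondrial matrix and passes their electrons to the respiratory chain. Citrate synthase (Cs) joins acetyl-CoA to oxaloacetate, the NAD-dependent isocitrate dehydrogenase (a catalytic subunit from Idh3a with regulatory subunits from Idh3b and Idh3g) and the oxoglutarate dehydrogenase complex (decarboxylase subunit from Ogdh) carry out the oxidative decarboxylations, succinyl-CoA ligase (shared subunit from Suclg1, ADP-specific subunit from Sucla2) makes a nucleoside triphosphate, and fumarase (Fh1) and malate dehydrogenase (Mdh2) lead back to oxaloacetate. In the heart these enzymes are abundant, and the ventricle is known to move from glycolysis towards oxidation of fatty acids after birth.

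The 4 groups held 2 arrays each: homozygous TNNT2ΔK210 knock-in mice (KI) at 1 week, wild-type mice (WT) at 1 week, KI mice at birth (0 day) and WT mice at birth. The knock-in is a mouse model of inherited dilated cardiomyopathy. RNA came from ventricles that were pooled from 3 animals, 100 ng of it was labelled with Cy3, and all arrays were on 1 slide. Whether the 2 arrays of 1 group represent different pools is not given in the labels. Errors and p-values below therefore cover the scatter among these arrays alone, and that scatter may be technical. Age coincided with the row of the slide, and genotype at birth with its columns, and these cannot be told apart. For 3 of the 4 arrays at 1 week, the deposited value table and the deposited scanner files named different samples, so these arrays are called A to D. The value table gave B and C as KI and A and D as WT. The scanner files gave C and D as KI and A and B as WT. Groups below follow the value table unless the scanner-file record is named, and differences averaged over the genotypes have the same value in both records.

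Each array's 75th percentile of signal lay between 342 on array D and 523 on array B, and between 60.7 and 64.7% of spots were well above background. The principal component with the most variance, 60.8%, parted the ages, and the next, with 11.7%, set array D apart. All 12 cardiomyocyte markers were well above background on every array, and their summed level (on a linear scale relative to the 75th percentile) was 2926 to 3243 at 1 week and 2794 to 3023 at birth. The atrial marker sum was 67.3 on array A, against 407 to 482 on arrays B to D and 437 to 584 at birth. Whether the probe of Tnnt2 covers the deleted codon is not given in the sources used here, so it checks no label. Its log2 level was 8.21 and 8.20 in KI and 8.33 and 7.77 in WT at 1 week, and 8.19 and 8.11 in KI and 8.16 and 8.30 in WT at birth. In RNA of whole ventricle, fewer cells of a type and less RNA per cell cannot be told apart.

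Promoters are shown here for Ogdh, the member called between the ages, and for Sucla2 and Suclg2, the ADP-side and GTP-side subunits whose ratio is described below. In them 4 short motifs were searched, those of factors known to act on genes of energy metabolism. RefSeq promoter windows on GRCm38.p6 (300 bases, most of them upstream of a start) were found for 8 of the 9 genes, 13 windows in all, 6 of them for Ogdh. The motifs were AAGGTCA (the core bound by ERR receptors), the NRF1 motif, CCGGAAG (ETS factors such as GABP) and TGACGTCA (CREB and ATF), read on both strands. Capitals mark the matches in the sequences, which run 5′ to 3′ on the strand of the gene. Ogdh has several start sites, and 2 windows are given, at chr11:6291347-6291646 and chr11:6291920-6292219 (both on the + strand). Sucla2 lies at chr14:73552536-73552835 (+ strand) and Suclg2, which encodes the GTP-side partner of Suclg1, at chr6:95718797-95719096 (- strand).
Ogdh upstream window: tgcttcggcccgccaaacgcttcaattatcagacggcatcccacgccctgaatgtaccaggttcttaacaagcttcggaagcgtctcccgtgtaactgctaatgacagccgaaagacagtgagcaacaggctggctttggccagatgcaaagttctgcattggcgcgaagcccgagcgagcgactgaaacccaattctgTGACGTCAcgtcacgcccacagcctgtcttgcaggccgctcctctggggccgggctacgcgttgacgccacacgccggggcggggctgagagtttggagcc
Ogdh downstream window: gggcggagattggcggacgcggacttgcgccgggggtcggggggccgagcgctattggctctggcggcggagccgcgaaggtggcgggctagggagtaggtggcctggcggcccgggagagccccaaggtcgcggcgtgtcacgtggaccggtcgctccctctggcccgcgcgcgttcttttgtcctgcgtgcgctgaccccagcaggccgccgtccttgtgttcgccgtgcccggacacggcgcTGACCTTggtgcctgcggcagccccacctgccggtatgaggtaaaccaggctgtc
Sucla2: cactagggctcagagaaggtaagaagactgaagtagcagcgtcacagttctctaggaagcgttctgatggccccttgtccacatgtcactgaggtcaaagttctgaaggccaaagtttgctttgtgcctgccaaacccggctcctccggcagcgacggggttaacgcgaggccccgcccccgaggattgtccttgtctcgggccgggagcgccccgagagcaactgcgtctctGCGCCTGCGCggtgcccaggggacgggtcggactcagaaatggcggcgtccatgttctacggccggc
Suclg2: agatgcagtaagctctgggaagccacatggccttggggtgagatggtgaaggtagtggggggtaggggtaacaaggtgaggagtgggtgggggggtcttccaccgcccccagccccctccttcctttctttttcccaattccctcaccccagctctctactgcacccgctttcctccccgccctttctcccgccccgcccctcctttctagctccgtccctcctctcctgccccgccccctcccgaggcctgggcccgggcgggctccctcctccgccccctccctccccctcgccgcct
The upstream Ogdh window held TGACGTCA from position -51 relative to the start, and the same match recurred in 2 overlapping Ogdh windows. The downstream window held AAGGTCA, read as its reverse complement, from position -5. TGACGTCA was in 1.79% of the 32851 RefSeq windows and AAGGTCA in 4.72%. Sucla2 held the NRF1 motif from position -17, a motif found in 4.60% of windows. The Suclg2 window held none of the 4 motifs. Of the other members, Mdh2 held TGACGTCA, and Idh3b and Idh3g held CCGGAAG, which was in 8.86% of windows. A match is a description of these letters only.

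Levels are given as log2 signal minus the log2 of the array's 75th percentile, and 1 probe, the brightest, stands for a gene. Levels of different genes are read by different probes and are not compared. Differences were tested with limma on all 8 arrays, with p-values adjusted by Benjamini-Hochberg over 15744 genes (15757 in the scanner-file record) and called at 0.05.

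**Figure D1:**
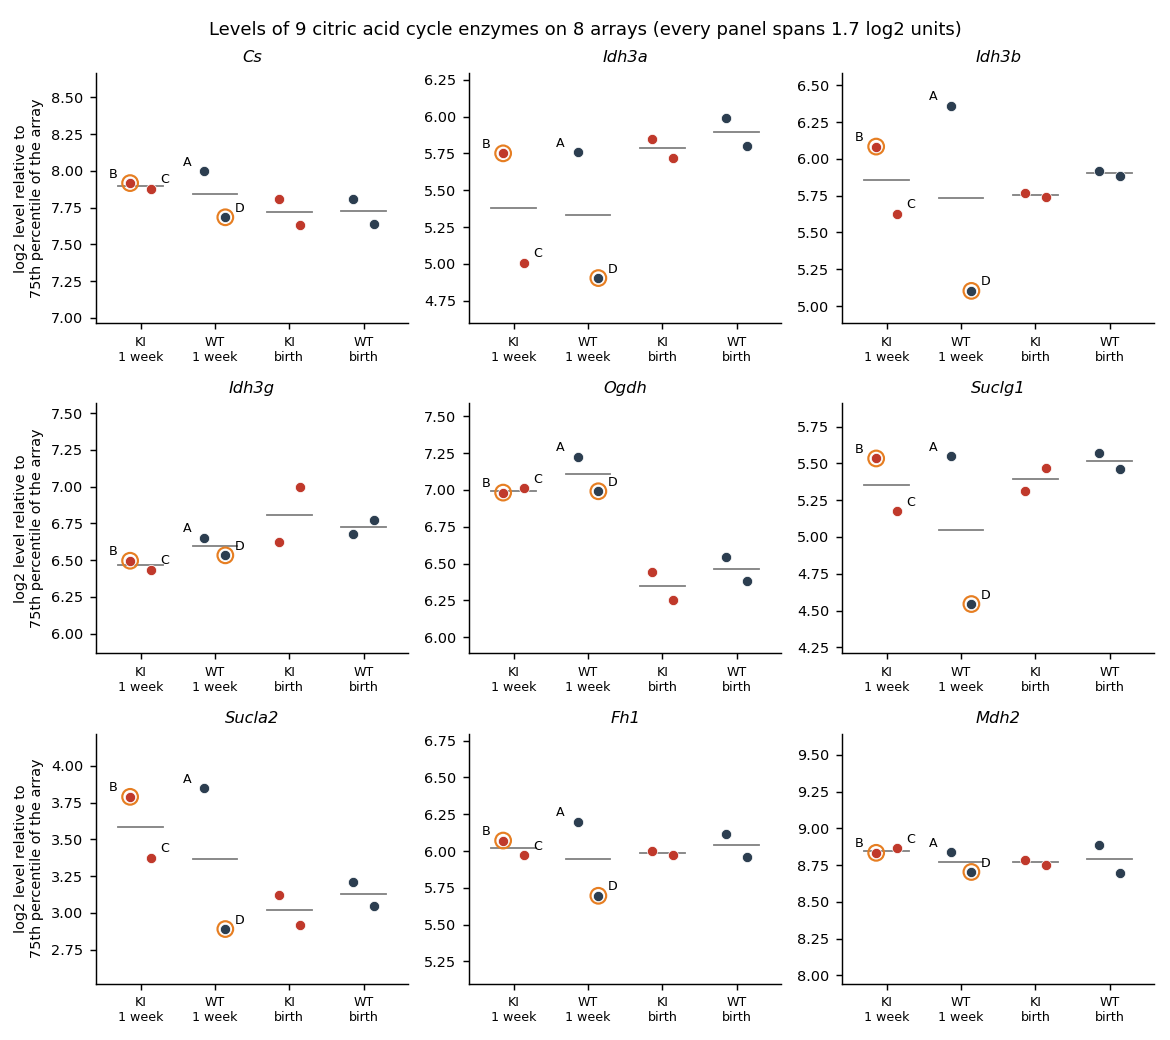
Levels of the 9 enzymes on 8 arrays, as log2 signal relative to the array's 75th percentile. Points are arrays, in red KI and in dark blue WT by the value table, bars are means of 2 arrays, and orange rings mark arrays B and D, whose genotype is the other one in the scanner-file record. Ogdh was higher on all 4 arrays at 1 week than on the birth arrays, and Idh3b, Suclg1 and Sucla2 spread widely at 1 week.

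Ogdh was the enzyme that differed between the ages. Its level was 6.98 and 7.01 in KI and 7.23 and 6.99 in WT at 1 week, against 6.44 and 6.25 in KI and 6.55 and 6.38 in WT at birth. All 4 arrays at 1 week lay above all 4 birth arrays, and array A was the highest. The difference averaged over the genotypes was 0.65 ± 0.10 (SE, log2; 1.57-fold, limma adjusted p = 0.00431). It was 0.65 ± 0.14 in KI (adjusted p = 0.0341) and 0.64 ± 0.14 in WT (adjusted p = 0.0252), and the difference between these was 0.01 ± 0.20 (adjusted p = 0.997). An exact two-sided permutation test of the 4 arrays at 1 week against the 4 at birth gave p = 0.0286 for Ogdh, the smallest p that 4 against 4 can give, and no other of the 9 members reached it. Adjusted over the 9 members, this permutation p was 0.257. A p this small needs ages that do not overlap, as was the case for 35.6% of all genes tested.

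A second Ogdh probe gave the same direction. It read 6.65 and 6.69 in KI and 6.90 and 6.78 in WT at 1 week, against 5.97 and 5.88 in KI and 6.02 and 5.90 in WT at birth. The averaged difference at this probe was 0.81 ± 0.09 (limma adjusted p = 0.00143 over the named probes that passed the signal filter). The averaged call of Ogdh held in all 19 settings of the analysis, with a range of 0.56 to 0.73. The calls within a genotype were less firm: in KI the adjusted p was between 0.0562 and 0.186 when any 1 of the KI arrays or of the WT birth arrays was left out, and in WT it was between 0.0549 and 0.121 without array A or either WT birth array.

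Ogdh was 1 of 9 members called in the averaged comparison, where 29.3% of all genes tested were called. The count was 1 of 9 in KI, where 10.6% of genes were called, and 1 of 9 in WT, where 19.0% were called. The median of the 9 averaged differences was -0.03, and the median over all genes tested was also -0.03. In the scanner-file record 2 of 9 members were called in the averaged comparison, where 30.0% of genes were called, and the additional member was Idh3a. In that record 2 of 9 were called in KI (Idh3a and Ogdh), where 15.3% of genes were called, and 1 of 9 in WT (Ogdh), where 12.7% were called.

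**Figure D2:**
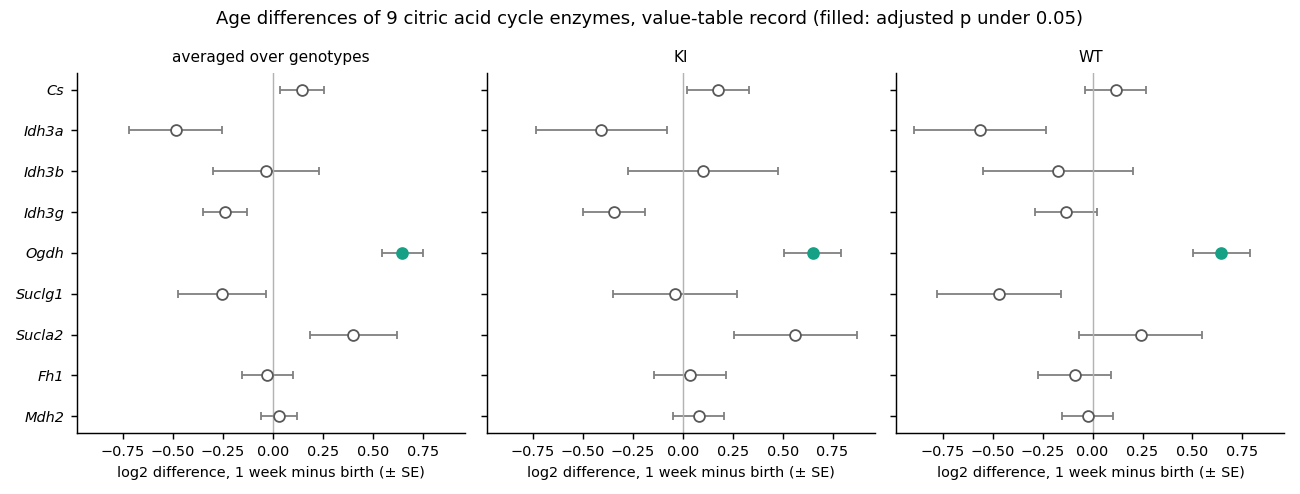
Differences between 1 week and birth for the 9 enzymes in the value-table record, with SE, averaged over the genotypes and within KI and WT. Filled points have a limma adjusted p under 0.05. Ogdh lies near 0.65 in all 3 panels, and the other 8 enzymes are open.

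Citrate synthase (Cs), the entry step of the cycle, read 7.92 and 7.88 in KI and 7.996 and 7.684 in WT at 1 week, against 7.81 and 7.63 in KI and 7.81 and 7.64 in WT at birth. The ages overlapped, and the averaged difference was 0.15 ± 0.11 (adjusted p = 0.343). The second Cs probe differed by 0.17 ± 0.12. The value of the brightest probe stayed between 0.06 and 0.22 in the 19 settings and was called in none of them.

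The subunits of isocitrate dehydrogenase did not move alike. Idh3a, the catalytic subunit, read 5.75 and 5.01 in KI and 5.76 and 4.90 in WT at 1 week, against 5.85 and 5.72 in KI and 5.99 and 5.80 in WT at birth. Arrays A and B lay within the birth range and arrays C and D below it. The averaged difference of Idh3a was -0.49 ± 0.23 (adjusted p = 0.157), and it was -0.70 (adjusted p = 0.0397) without array A and -0.27 (adjusted p = 0.351) without array D. In the scanner-file record, where C and D are the KI arrays, the same averaged difference had a smaller error (-0.49 ± 0.09, adjusted p = 0.00854). In that record Idh3a was lower at 1 week than at birth in KI by -0.83 ± 0.12 (adjusted p = 0.00932), and differed by -0.14 ± 0.12 in WT (adjusted p = 0.492). The difference between these 2 values was -0.69 ± 0.18 and was not called (adjusted p = 0.774).

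Idh3b, a regulatory subunit, read 6.08 and 5.63 in KI and 6.36 and 5.10 in WT at 1 week, against 5.77 and 5.74 in KI and 5.92 and 5.89 in WT at birth. The birth arrays fell within 0.18 of each other and the arrays at 1 week spanned 1.26, both above and below birth. Its averaged difference was -0.04 ± 0.27 (adjusted p = 0.932). Idh3g, the other regulatory subunit, which is encoded on the X chromosome, read 6.50 and 6.44 in KI and 6.65 and 6.53 in WT at 1 week, against 6.62 and 6.99 in KI and 6.68 and 6.77 in WT at birth. Only array A overlapped the birth range, and the averaged difference was -0.24 ± 0.11 (adjusted p = 0.144). The second Idh3g probe differed by -0.41 ± 0.15 (adjusted p = 0.0829). It read 5.49 and 5.23 in KI and 5.59 and 5.05 in WT at 1 week. At birth it read 5.65 and 5.86 in KI and 5.68 and 5.82 in WT.

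Succinyl-CoA ligase is a pair of a shared subunit and a nucleotide-specific subunit. Suclg1, the shared subunit, read 5.53 and 5.17 in KI and 5.55 and 4.54 in WT at 1 week, against 5.31 and 5.47 in KI and 5.57 and 5.46 in WT at birth. The averaged difference was -0.25 ± 0.22 (adjusted p = 0.416). It was -0.50 (adjusted p = 0.0271) without array A and -0.0026 (adjusted p = 0.990) without array D. Sucla2, the ADP-specific subunit, read 3.79 and 3.38 in KI and 3.85 and 2.89 in WT at 1 week, against 3.12 and 2.92 in KI and 3.21 and 3.05 in WT at birth. Arrays A, B and C lay above the birth range and array D below it. The averaged difference was 0.40 ± 0.22 (adjusted p = 0.204), and it was 0.64 (adjusted p = 0.0233) without array D and 0.16 (adjusted p = 0.395) without array A.

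Fumarase (Fh1), encoded on chromosome 1 as Tnnt2 is, read 6.07 and 5.97 in KI and 6.20 and 5.70 in WT at 1 week, against 5.999 and 5.972 in KI and 6.12 and 5.96 in WT at birth. Its averaged difference was -0.03 ± 0.13 (adjusted p = 0.891). Mdh2, the last enzyme of the cycle, read 8.83 and 8.86 in KI and 8.84 and 8.70 in WT at 1 week, against 8.79 and 8.75 in KI and 8.89 and 8.70 in WT at birth. The 8 arrays overlapped by age and by genotype, and the averaged difference was 0.03 ± 0.09 (adjusted p = 0.836).

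Subunits of 1 enzyme can be read against each other on the same array, which removes the scaling of the array. The same was done for Sucla2 and Suclg2, which belong to the alternative ADP-side and GTP-side forms of the ligase. These ratios were added after the levels had been seen and are described without a test. The log2 ratio of Sucla2 to Suclg2, the ADP-side against the GTP-side subunit, relative to its mean over the birth arrays, was 1.36 and 1.06 in KI and 1.28 and 1.56 in WT at 1 week, against 0.03 and 0.05 in KI and 0.04 and -0.12 in WT at birth. It was higher on all 4 arrays at 1 week, by 1.32 on average, and ranged from 0.99 to 1.39 over the settings tried. The ratio of Sucla2 to Suclg1 was 0.58 to 0.73 at 1 week and -0.18 to 0.19 at birth. That of Suclg1 to Suclg2 was 0.48 to 0.84 at 1 week and -0.16 to 0.23 at birth.

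Array D, which gave the lowest Suclg1, Sucla2 and Suclg2 levels of the arrays at 1 week, gave the highest value of these 3 ratios. Ogdh was also read against Dlst, the succinyltransferase of its complex, and Dld, the dihydrolipoyl dehydrogenase. On the same scale, the ratio of Ogdh to Dlst was 0.46 to 0.74 at 1 week and -0.09 to 0.07 at birth. The ratio of Ogdh to Dld was 0.60 to 1.80 at 1 week and -0.07 to 0.08 at birth, with array D the highest. Idh3a over Idh3b was -0.63 to -0.21 at 1 week, below -0.10 to 0.07 at birth. The ages overlapped in the remaining 2 of the 8 ratios, Idh3a over Idh3g and Idh3b over Idh3g. The ages did not overlap for 35.6% of single genes tested. The share for ratios of gene pairs was not computed, and several of the 8 ratios have a gene in common. The 35.6% is therefore no measure of how often such ratios part the ages.

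**Figure D3:**
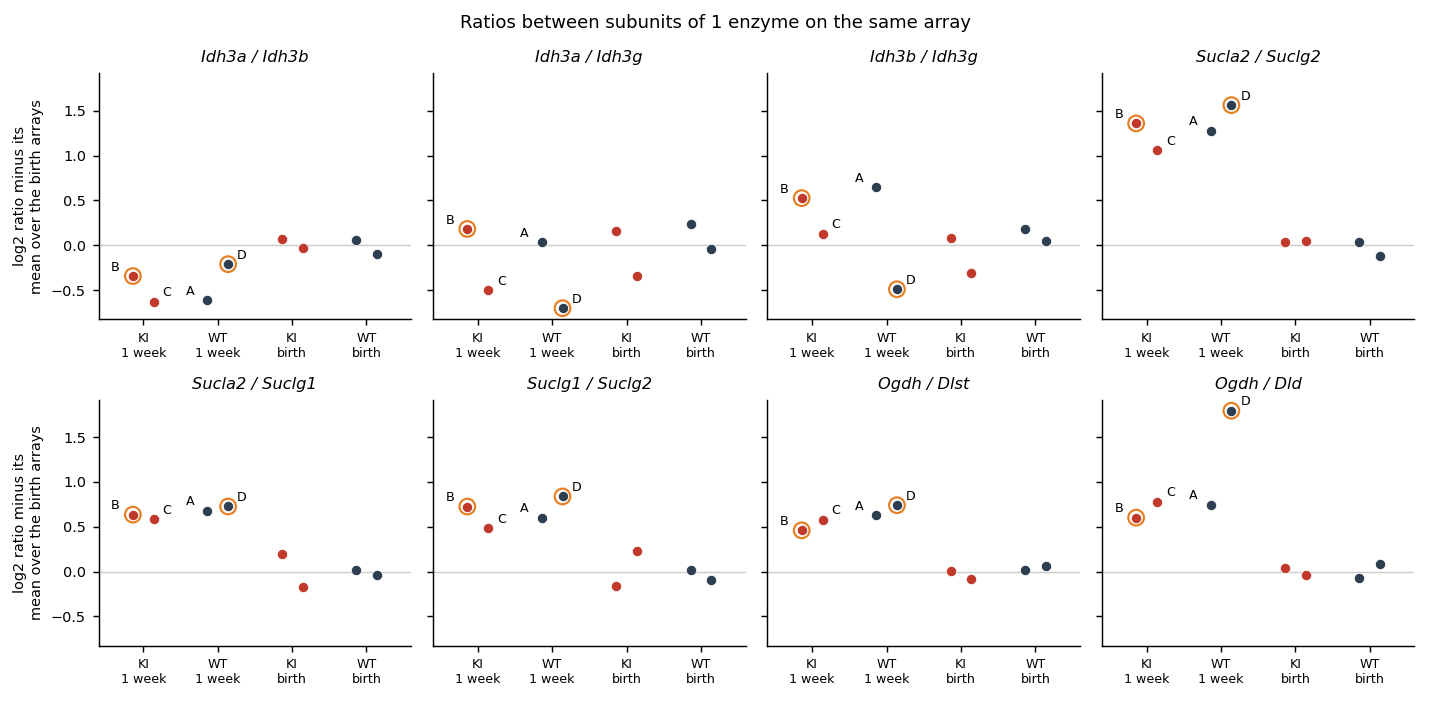
Log2 ratios between subunits on the same array, minus the mean of the 4 birth arrays, for 8 pairs. The pairs are subunits of the same enzyme, except Sucla2 and Suclg2, which belong to alternative forms of the ligase. Colours, letters and rings are as for the levels by array. The ratios of Sucla2 to Suclg2 and of Ogdh to Dlst set all 4 arrays at 1 week above the birth arrays, whereas Idh3b over Idh3g overlaps.

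Other subunits of the cycle's complexes (Dlst, Dld, Suclg2 and the 4 subunits of succinate dehydrogenase) counted 0 of 7 higher and 1 of 7 lower at 1 week in the averaged comparison, with a median of -0.30, against -0.03 over all genes tested. Of all genes tested, 29.3% were called in that comparison. The 1 called was Suclg2, which read 1.49 and 1.37 in KI and 1.63 and 0.39 in WT at 1 week, against 2.15 and 1.93 in KI and 2.23 and 2.23 in WT at birth. The ages did not overlap, and the difference was -0.91 ± 0.25 (adjusted p = 0.0344). The size of the Suclg2 difference was -0.60 without array D and -0.59 with the mean of its probes. The call was made in 12 of 19 settings, and was lost without the signal filter (adjusted p = 0.0686) and without either KI array at 1 week or any birth array (adjusted p between 0.0717 and 0.0960). Sdha, the flavoprotein of succinate dehydrogenase, differed by -0.30 ± 0.13 (adjusted p = 0.136) and Sdhd, a membrane anchor, by -0.35 ± 0.18 (adjusted p = 0.192). Without array A, Sdha (-0.43, adjusted p = 0.0180), Sdhd (-0.55, adjusted p = 0.0116) and Dld (-0.66, adjusted p = 0.0104) were called as well. Without array D, none of these 3 was called, at -0.16 for Sdha (adjusted p = 0.248), -0.14 for Sdhd (adjusted p = 0.358) and -0.014 for Dld (adjusted p = 0.944). Sdhb, the iron-sulphur subunit, differed by 0.06 ± 0.09 (adjusted p = 0.610).

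Of 14 enzymes that feed the cycle or refill its intermediates, 2 were called higher and 2 lower at 1 week, where 29.3% of all genes tested were called. Me3, a mitochondrial NADP-dependent malic enzyme, read 3.56 and 3.29 in KI and 4.01 and 3.52 in WT at 1 week, against 1.43 and 1.77 in KI and 2.20 and 1.96 in WT at birth. It was higher on every array at 1 week, by 1.76 ± 0.15 (3.38-fold, adjusted p = 0.000447). Pcx, pyruvate carboxylase, which makes oxaloacetate, read -0.12 and -0.01 in KI and -0.25 and 0.07 in WT at 1 week, against 0.74 and 0.94 in KI and 1.02 and 1.15 in WT at birth. It was lower on every array at 1 week, by -1.04 ± 0.11 (2.06-fold lower, adjusted p = 0.000920). Pck2, the mitochondrial phosphoenolpyruvate carboxykinase, was also lower on every array (-0.56 ± 0.11, adjusted p = 0.00929), at 1.58 and 1.68 in KI and 1.59 and 1.87 in WT at 1 week and 2.19 and 2.36 in KI and 2.12 and 2.30 in WT at birth.

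Me3, Pcx and Pck2 were called in all 19 settings, with ranges of 1.63 to 1.88 for Me3, -1.12 to -0.88 for Pcx and -0.65 to -0.31 for Pck2, whose smallest value came with the normexp background. Me2, the NAD-linked malic enzyme of mitochondria, was called only narrowly (0.33 ± 0.10, adjusted p = 0.0495, ages overlapping) and in 5 of 19 settings. It was lost when any 1 of the 8 arrays was left out (adjusted p between 0.0581 and 0.147). In the scanner-file record 1 of the 14 was higher and 3 were lower, where 30.0% of all genes tested were called. The median of the 14 differences was -0.21.

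Paralogues and counterparts of the enzymes outside the NAD-dependent cycle counted 0 higher and 1 lower of 6 tested (of 8 listed), where 29.3% of all genes tested were called. The 1 was Dhtkd1, which encodes an oxoadipate dehydrogenase related to Ogdh. It read -3.94 and -3.79 in KI and -3.72 and -3.23 in WT at 1 week, against -3.06 and -2.58 in KI and -2.95 and -2.68 in WT at birth. The ages did not overlap, and the difference was -0.85 ± 0.16 (adjusted p = 0.00929), opposite in sign to Ogdh. It was called in all 19 settings, with a range of -0.97 to -0.37, the smallest being that with the normexp background (adjusted p = 0.0477). Ogdhl, the closer paralogue of Ogdh, was below the signal filter. Idh2, the mitochondrial NADP-dependent isocitrate dehydrogenase, differed by -0.11 ± 0.08 (adjusted p = 0.318). The probes of Aco1, the cytosolic aconitase, disagreed: the brightest gave -0.13 ± 0.11 (adjusted p = 0.436) and the mean of its probes 0.31 (adjusted p = 0.0453).

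**Figure D4:**
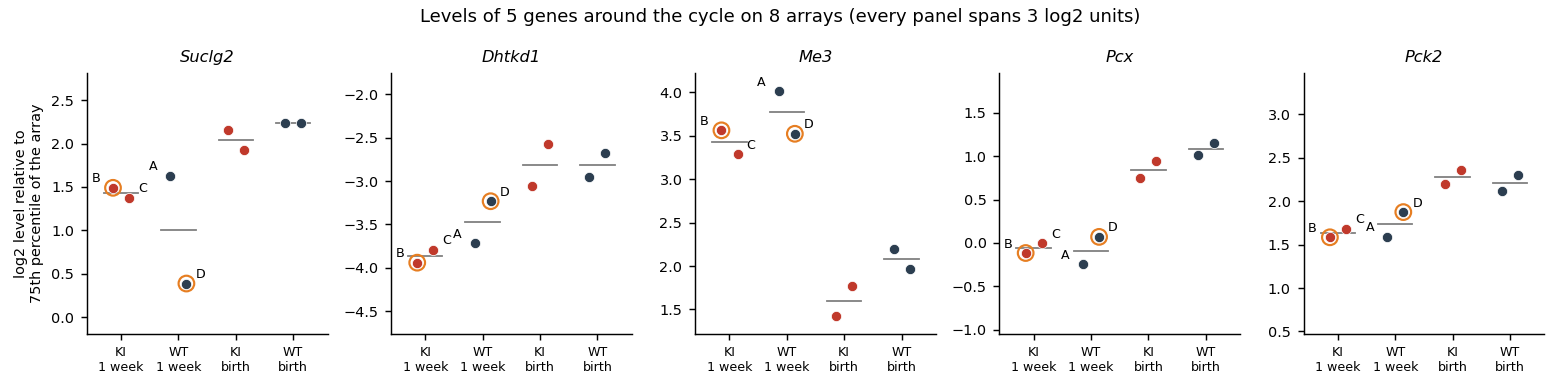
Levels of Suclg2, Dhtkd1, Me3, Pcx and Pck2 on 8 arrays, as log2 signal relative to the array's 75th percentile. Colours, letters, bars and rings are as for the levels of the enzymes. Me3 was higher at 1 week than at birth on every array, and the other 4 genes were lower on every array.

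None of the 8 genes of the malate-aspartate shuttle and of citrate export was called between the ages, where 29.3% of all genes tested were called. Of the 8, 2 were positive and 6 negative (median -0.15). Acly, the cytosolic enzyme that splits citrate, came closest, at -0.27 ± 0.09 (adjusted p = 0.0648, ages not overlapping). Of 18 genes of mitochondrial import, outer membrane and matrix upkeep, 0 were called, 17 of 18 were negative, and the median was -0.17. In the scanner-file record 3 of these 18 were called lower, where 30.0% of all genes tested were called. They were Tomm20 (-0.39 ± 0.12, adjusted p = 0.0484), Tomm70a (-0.64 ± 0.18, adjusted p = 0.0387), both import receptors of the outer membrane, and the chaperonin Hspe1 (-0.40 ± 0.11, adjusted p = 0.0323). In the value-table record Tomm20 had an adjusted p of 0.0511.

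Some markers of other cells also moved with age. In this averaged comparison 29.3% of all genes tested were called. Of the fibroblast markers, 5 of 6 were called higher at 1 week, and their summed level was 398 to 526 at 1 week and 207 to 246 at birth. Of the endothelial markers, 3 of 6 were called higher, with sums of 51.5 to 69.7 at 1 week and 42.1 to 43.9 at birth, and of the macrophage markers 3 of 6, with sums of 9.46 to 13.4 at 1 week and 6.18 to 7.87 at birth. Of 7 adipocyte markers tested, 3 were called higher, and Elovl3 was well above background on no array. Their sums (177 to 253 at 1 week and 173 to 198 at birth) were carried by Fabp4 and Cidea. Ucp1, the uncoupling protein of brown fat, had a log2 level of -6.28 on array A and of 0.52, 1.23 and 2.40 on arrays B, C and D, against -7.28 to -6.84 at birth. Adipoq, which encodes an adipocyte hormone, had -6.72 on array A and -2.93, -2.67 and -1.05 on arrays B, C and D, against -7.40 to -6.95 at birth. Ucp1, Adipoq, Plin1 and Cfd were well above background on arrays B, C and D and on neither array A nor any birth array. The Ogdh level was 7.23 on array A, where these 4 markers were not well above background, and 6.98 to 7.01 on the other arrays at 1 week. Of 12 cardiomyocyte markers, 1 was called, Mb, which was higher. Smooth muscle markers moved both ways (3 higher and 2 lower of 6). Of 5 erythroid markers tested 1 was higher, with sums of 457 to 668 at 1 week and 457 to 490 at birth and Epb42 well above background on no array. The part of these cells in the values of Ogdh and the genes around the cycle was not tested.

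Of the 9 members, 6 had a wider range over the arrays at 1 week than over the birth arrays, as did 62.6% of all genes tested. The median range over 4 arrays was 0.50 at 1 week and 0.26 at birth for the 9 members, and 0.43 at 1 week and 0.32 at birth for all genes tested. The wide members were Idh3b (1.26 at 1 week), Suclg1 (1.00), Sucla2 (0.96) and Idh3a (0.86), each wider than at least 85.7% of genes tested. The other 3 were narrower at 1 week than at birth: Mdh2 (0.16 at 1 week and 0.19 at birth), Idh3g (0.22 at 1 week and 0.37 at birth) and Ogdh (0.24 at 1 week and 0.30 at birth). All these ranges are those of the brightest probe. The second Idh3g probe spread more widely at 1 week (5.05 to 5.59, lowest on array D) than at birth (5.65 to 5.86). So did the second Ogdh probe, at 6.65 to 6.90 at 1 week and 5.88 to 6.02 at birth. Of the 9 members, 7 had their lowest value at 1 week on array D, as did 39.0% of all genes tested. Array D also had the lowest 75th percentile of signal, and the part of this in the members' values was not tested.

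Over the 8 arrays, the members, each at its brightest probe, fell apart into those that followed the mean of the other members and those that did not. Pearson's r with that mean was 0.97 for Idh3b, 0.96 for Fh1, 0.77 for Suclg1, 0.74 for Sucla2, 0.68 for Cs, 0.60 for Mdh2 and 0.51 for Idh3a, but 0.01 for Ogdh and -0.08 for Idh3g. No r was computed for second probes, and the second Idh3g probe, unlike the brightest, was lowest on array D. These values describe 8 arrays that share a scaling, and no p is attached. The genes outside the members whose levels correlated most with the members' mean were Immp1l (r = 0.99), Csl (0.99), Tspan9 (0.99), Mrpl46 (0.98) and Dlat (0.98). Immp1l encodes a peptidase of the inner mitochondrial membrane, Mrpl46 a mitochondrial ribosomal protein and Dlat the acetyltransferase of pyruvate dehydrogenase. Csl is a citrate synthase-like gene close in sequence to Cs, so its probe and that of Cs may share signal, and this was not tested.

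Between the genotypes, no member was called at either age. At birth, where the records agree on every array, 8 of 9 members were lower in KI than in WT, with a median of -0.11 and a range of -0.15 to 0.08 (SE 0.13 to 0.38). The median over all genes tested was 0.00. Related lists leaned the same way: 1 of 7 other subunits was positive, 1 of 6 paralogues and counterparts, 1 of 8 shuttle and citrate genes, 4 of 14 feeding and refilling enzymes and 3 of 18 import and upkeep genes. None of the 9 was called (all adjusted p = 1.000, where 0.0381% of genes were called), none had an unadjusted p under 0.05 (4.71% of genes did), and only the arrays of Idh3b did not overlap (31.9% of genes): 5.77 and 5.74 in KI, against 5.92 and 5.89 in WT. For Idh3b the difference was -0.15 ± 0.38. With 2 arrays against 2, an exact permutation test cannot go below p = 0.333.

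At 1 week the answer depended on the record. In the value-table record, 7 of 9 members were higher in KI than in WT, with a median of 0.07 and a range of -0.13 to 0.31. The median over all genes tested was 0.03. No member was called (adjusted p of 0.786 or more, where 0.0508% of genes were called) or had an unadjusted p under 0.05 (7.06% of genes did). Only the arrays of Idh3g did not overlap, as was the case for 37.9% of genes. Suclg1 had the highest of these values, 0.31 ± 0.31. By the scanner files all 9 members were lower in KI, with a median of -0.30, against a median of 0.00 over all genes tested. The arrays of 6 members did not overlap in that record, as was the case for 40.1% of genes.

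In the scanner-file record Idh3a read 5.01 and 4.90 in KI, against 5.76 and 5.75 in WT. Its difference of -0.80 ± 0.12 was about as large as that of Idh3b (-0.86 ± 0.19), and both exceeded the spread within the groups. Suclg1 (-0.68 ± 0.21) and Sucla2 (-0.69 ± 0.18) followed, and these 4 had an unadjusted p under 0.05, as did 9.87% of genes. None was called: the adjusted p was 0.396 or more for each of the 9, where 0.00635% of genes were called. In the same record Tnnt2 differed by -0.28 ± 0.17 and the median of the 7 other subunits of the cycle's complexes was -0.28, with 7 of 7 negative. Lists around the cycle leaned the same way. Medians were -0.22 for the import and upkeep genes (1 of 18 positive) and -0.25 for the feeding and refilling enzymes (3 of 14 positive). They were -0.38 for the shuttle and citrate genes (2 of 8 positive) and -0.15 for the paralogues and counterparts (2 of 6 positive).

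The adipocyte, atrial and erythroid sums differed between arrays B and D, whose genotype differs between the records. Sums of other lists differed as well. The fibroblast sum was 404 on array B and 526 on array D, and the endothelial sum 51.5 and 69.7. For smooth muscle it was 110 on B and 159 on D, and for macrophages 10.6 and 11.6. The cardiomyocyte sum was 3080 on array B and 3050 on array D, but single markers of this list differed in both directions. Myl2 had a log2 level of 8.74 on array B and 9.17 on array D, and Myh6 was also higher on D. Tnnc1 had 6.81 on array B and 6.11 on array D, and Ckm 5.48 and 4.57. Actn2, Actc1 and Pln were also lower on D. The adipocyte marker Ucp1 had levels of 1.23 and 2.40 in KI (C and D), against -6.28 (not well above background) and 0.52 in WT (A and B), by the scanner files. By the value table its levels were 0.52 and 1.23 in KI (B and C), against -6.28 and 2.40 in WT (A and D). The sum of the adipocyte list, carried by Fabp4 and Cidea, was 248 and 253 in KI, against 182 and 177 in WT, by the scanner files, and 177 and 248 in KI, against 182 and 253 in WT, by the value table. Between arrays A and B this sum did not follow Ucp1, Adipoq, Plin1 and Cfd. It was 177 on array B, with all of them well above background, and 182 on array A, with none. The cardiomyocyte sum was 2926 and 3050 in KI, against 3243 and 3080 in WT, by the scanner files, and 3080 and 2926 in KI, against 3243 and 3050 in WT, by the value table. The atrial sum was 481 and 482 in KI, against 67.3 and 407 in WT, by the scanner files, and 407 and 481 in KI, against 67.3 and 482 in WT, by the value table. The erythroid sum was 668 on array D and 457 to 538 on the other arrays at 1 week. The part of these in the members' differences was not tested.

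The difference between the genotype effects at 1 week and at birth was called for no member in either record. By the value table, 8 of 9 were positive, with a median of 0.13, against 0.02 over all genes tested. Every adjusted p was 0.895 or more, where 0.00635% of genes were called. None had an unadjusted p under 0.05, against 4.85% of genes. By the scanner files, 8 of 9 were negative, with a median of -0.25, against -0.01 over all genes tested. Every adjusted p there was 0.774 or more, where 0.0% of genes were called. In that record 2 of 9, Idh3a and Idh3b, had an unadjusted p under 0.05, as did 6.29% of genes.

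**Figure D5:**
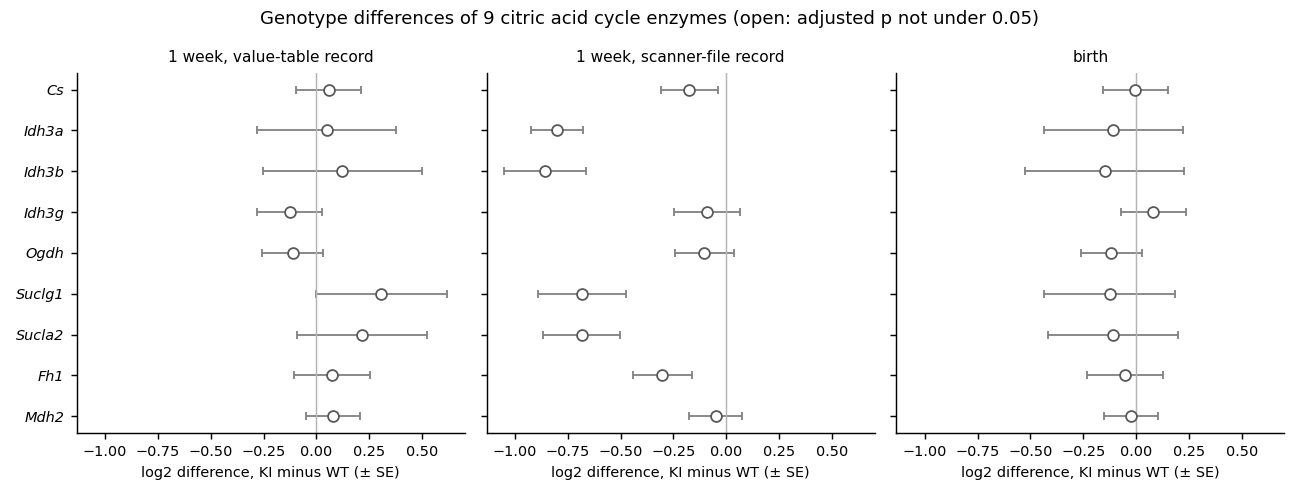
Differences between KI and WT for the 9 enzymes, with SE, at 1 week by the value table, at 1 week by the scanner files and at birth. All points are open, meaning that no limma adjusted p was under 0.05. By the scanner files all 9 lie below 0 at 1 week, with Idh3a at -0.80 and Idh3b at -0.86, whereas 7 of 9 lie above 0 by the value table.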

How the data were processed

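Ventricular RNA was measured on 8 single-colour Agilent arrays. The deposited scanner files held, per the file headers, the processed signal of each spot, a linear intensity from which the scanner software had already taken background and spatial trends. The deposited value table held that intensity with 1 value per probe and 0 columns left unused. Raw median intensities, also deposited, and flags coded 0 and 1 served alternatives and filters. The file headers gave Feature Extraction 11.0.1.1 and build mm9, and the submitters' processing notes version 9.1. The column of each sample in the value table equalled 1 scanner file over all probes with 1 spot (relative tolerance 0.0001), and for 3 of 4 columns at 1 week this was the file of another sample.

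Non-outlier spots were averaged, log2 transformed and scaled by the 75th percentile of the array's probes. The brightest probe stood for a gene, which was tested where some group had it well above background on both its arrays. Group means were fitted with limma 3.58.1 in R 4.3.3 (lmFit and eBayes, 4 residual degrees of freedom, Benjamini-Hochberg, threshold 0.05). The script was tested on simulated data. Exact permutation tests were two-sided. The number of arrays limits the precision. Probes were named through RefSeq accessions in the GRCm38.p6 table.

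The members and lists were chosen with earlier results of these data known. In the list of other subunits, 1 gene is not reported here and was left out of that list's counts and medians after they had been computed. Besides the 9 members, the text names, from each list, up to 4 genes ranked by p in the averaged age comparison and up to 2 in each genotype comparison, and the 5 genes most correlated with the members. Background correction, normalization, filter, probe choice, fit, replicate block, record and leaving out each array were varied.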

Additional observations from a re-analysis of the deposited data

Results flagged for a closer look

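Ogdh on array A at 1 week stood above the other 3 arrays of that age: the levels were 6.98 and 7.01 in KI and 7.23 and 6.99 in WT, the highest being array A. Its gap to the next array was 0.883 of the range of the 4 arrays, above the 95% critical value of Dixon's test. This was 1 of 18 groups of 4 arrays checked over the 9 members and 2 ages, and chance alone marks about 1 in 20 such groups.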

How the results depend on the processing

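The averaged age difference of Ogdh was called in all 19 settings. A change of sign is counted below where the value was called or moved by more than its SE. The number of arrays (2 a group) limits every genotype comparison, and the 1-week genotypes rest on which deposited record is right.

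The averaged count of called members, 1 of 9, was 2 in the scanner-file record, and ranged from 1 to 3 when single arrays were left out (2 to 3 within the scanner-file record, an alternative added after seeing the data). In KI the count of 1 became 2 in the scanner-file record and 0 with median scaling or no signal filter, and ranged from 0 to 1 without single arrays (0 to 4 within the scanner-file record). In WT it became 0 with median scaling, no signal filter or only the arrays compared, and ranged from 0 to 2 (0 to 2 within the scanner-file record). Genotype and interaction counts stayed at 0 in every setting run. With median scaling the exact test by age counted 2 members, Ogdh and Idh3g (p = 0.0286 each, 0.129 adjusted over the 9 members). Median scaling moved the median over all genes of the averaged age difference to -0.12 and of the WT age difference to -0.20. Mdh2 became -0.071 in the averaged comparison with quantile normalization, and Cs -0.042 in WT with median scaling.

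In the scanner-file record the differences between KI and WT at 1 week became -0.18 for Cs, -0.80 for Idh3a, -0.86 for Idh3b, -0.68 for Suclg1, -0.69 for Sucla2, -0.30 for Fh1 and -0.051 for Mdh2. The age difference there became 0.32 for Idh3b, 0.025 for Suclg1 and 0.10 for Fh1 in WT, and -0.39 for Idh3b and -0.15 for Fh1 in KI. The interaction became -0.17 for Cs, -0.69 for Idh3a, -0.71 for Idh3b, -0.56 for Suclg1, -0.58 for Sucla2 and -0.25 for Fh1. The records differ in which arrays form each group at 1 week.

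Without single arrays, the difference between KI and WT at 1 week ranged from -0.10 to 0.21 for Cs, -0.38 to 0.48 for Idh3a, -0.51 to 0.75 for Idh3b, -0.19 to 0.81 for Suclg1, -0.26 to 0.69 for Sucla2 and -0.18 to 0.33 for Fh1. At birth it ranged from -0.10 to 0.27 for Idh3g. The age difference in WT ranged from -0.040 to 0.27 for Cs, -0.80 to 0.46 for Idh3b, -0.97 to 0.032 for Suclg1, -0.24 to 0.72 for Sucla2 and -0.34 to 0.16 for Fh1, and the averaged one from -0.35 to 0.28 for Idh3b and -0.41 to 0.037 for Slc25a12. The interaction ranged from -0.36 to 0.90 for Idh3b, -0.069 to 0.935 for Suclg1 and -0.16 to 0.80 for Sucla2, and the ratio of Idh3b to Idh3g from -0.082 to 0.49. The mean of a gene's probes gave 0.31 for Aco1 and -0.046 for Slc25a11.

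Of all genes, 6 were called between KI and WT at birth, which was 0 in the scanner-file record, with no signal filter, under the replicate block and when other arrays were left out of the fit, and 8 at 1 week, which ranged from 0 to 22. The birth count was 3 among genes above background on all arrays and 0 to 7 without single arrays, and the interaction count of 1 was 0 to 4 over the settings. The age counts were 1868 without the signal filter and 1454 with only the arrays compared in WT (2988), and 1084 without the filter in KI (1670). Without single arrays, in either record, they ranged from 524 to 4180 in WT, 560 to 4228 in KI and 2574 to 6467 averaged (4608). Replicate numbers were not used as pairs in the main fit. Correlations of deviations between same-numbered arrays of 2 groups lay between -0.14 and 0.29, the highest being that of KI and WT at birth. With the replicate block the counts of members stayed at 1 in each age comparison and 0 elsewhere. With the numbers of the KI arrays at 1 week crossed, added after seeing the data, 1690 genes and 1 member were called in KI. The normexp background used median spot signals in place of mean ones. The cause of these changes was not tested where none is named.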
